A study of Mus musculus with 4 samples.

Results

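Red blood cell genes were followed in mouse molar tooth germs kept in organ culture with or without dioxin. The genes are the globins Hba-a1, Hba-x, Hbb-y, Hbb-bh1, Hbb-bt and Hbb-bs, the erythroid heme synthesis gene Alas2, the carbonic anhydrase gene Car2 and the anion exchanger gene Slc4a1. All probe sets annotated to a single symbol among these 9 genes were taken. They came to 8 of the 12488 probe sets on the array and covered 7 of the 9 genes, with 2 probe sets for Hbb-y. Hbb-bt and Hbb-bs had no probe set of their own.

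The treated samples were NMRI mouse mandibular molar regions of embryonic day 14, exposed in culture over 24 h to TCDD, the dioxin that binds the aryl hydrocarbon receptor, at 1 µM and dissolved in DMSO. The controls were the same tissue cultured for 24 h with the solvent DMSO at 0.65%. Each group had 2 arrays, and each array held the RNA of a pool of about 60 explants from 3 experiments. The label of DMSO replicate 2 lists ascorbic acid in the medium and the other labels do not. Values are MAS5 signals on a linear scale, scaled by the authors to a target of 100, without detection calls. Replicates are separate pools, so p-values measure the spread between pools, estimated for each probe set largely from other probe sets of like signal.

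Hemoglobin is a tetramer of alpha-type and beta-type globin chains, each holding a heme. In the mouse, primitive red cells from the yolk sac carry embryonic chains, zeta from Hba-x and epsilon-y and beta-h1 from Hbb-y and Hbb-bh1. Definitive red cells, made in the fetal liver at this age, carry adult chains from Hba-a1 and its near-identical copy Hba-a2 and from the adult genes of the Hbb cluster. Mouse strains carry the adult beta genes either as Hbb-bs and Hbb-bt or as Hbb-b1 and Hbb-b2. The tooth germ lies in vascularised jaw tissue, so explants hold blood within their vessels. In bulk tissue of this kind, fewer red cells and less globin RNA per red cell cannot be told apart.

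The sequences upstream of 4 measured genes are shown because these are the members with their own probe set above the signal filter and an entry in the RefSeq promoter table. They let the embryonic and adult genes of the alpha cluster, the embryonic beta gene and the heme gene be set side by side. Each is the 250 bases before the RefSeq start in GRCm38.p6, read on the gene's strand. Capitals mark words searched on both strands and allowed to overlap. GATA words were AGATAA or AGATAG. The same words with another first base, TGATAA or TGATAG, were counted with them. Words of the CACCC type, recognised by Klf1 and its relatives, were CCNCNCCC. The remaining words were CCAAT, bound by the NF-Y complex, and the core element with the letters TATAA.
Hba-a1, chr11:32283422-32283671, plus strand: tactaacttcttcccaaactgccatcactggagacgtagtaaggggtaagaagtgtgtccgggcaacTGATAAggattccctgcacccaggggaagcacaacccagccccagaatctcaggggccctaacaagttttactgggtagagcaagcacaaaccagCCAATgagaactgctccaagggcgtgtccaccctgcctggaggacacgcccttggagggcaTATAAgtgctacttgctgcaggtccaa
Hba-x, chr11:32276350-32276599, plus strand: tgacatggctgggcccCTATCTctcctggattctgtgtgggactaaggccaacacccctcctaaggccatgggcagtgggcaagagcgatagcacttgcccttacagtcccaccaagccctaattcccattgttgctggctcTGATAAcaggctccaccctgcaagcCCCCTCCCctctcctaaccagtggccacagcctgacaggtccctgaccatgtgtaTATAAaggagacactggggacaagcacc
Hbb-y, chr7:103853208-103853457, minus strand: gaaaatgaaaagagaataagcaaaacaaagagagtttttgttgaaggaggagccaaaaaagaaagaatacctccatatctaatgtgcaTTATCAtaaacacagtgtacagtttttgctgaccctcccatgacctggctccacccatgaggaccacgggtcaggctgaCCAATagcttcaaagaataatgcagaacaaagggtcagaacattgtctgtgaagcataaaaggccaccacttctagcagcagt
Alas2, chrX:150547167-150547416, plus strand: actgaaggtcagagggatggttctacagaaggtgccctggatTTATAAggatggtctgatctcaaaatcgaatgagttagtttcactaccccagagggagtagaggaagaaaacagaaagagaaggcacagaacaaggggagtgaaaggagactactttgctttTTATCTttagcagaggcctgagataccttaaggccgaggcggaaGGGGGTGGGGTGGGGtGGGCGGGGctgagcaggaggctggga

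All 4 sequences held at least 1 GATA word, which 26.5% of the 32536 distinct upstream sequences of the table held. Hba-a1, Hba-x and Hbb-y had 1, 2 and 1 GATA words and Alas2 had 1. Of the adult beta genes without a probe set of their own, Hbb-bs had 1 GATA word and Hbb-bt 0, and each had 1 CACCC-type word and at least 1 CCAAT and 1 TATAA word. CACCC-type words, present in 46.2% of the table, occurred among the 4 shown 1 time in Hba-x and 4 times, in part overlapping, in Alas2. The searched word CCNCNCCC does not require the letters CACCC. Those letters by themselves were not searched, and they stand unmarked in the Hba-a1, Hba-x and Hbb-y sequences. CCAAT, present in 33.8%, occurred there 1 time each in Hba-a1 and Hbb-y. A TATAA word, present in 22.7%, began 27 bases before the start in Hba-a1 and 28 bases before it in Hba-x, and Alas2 held the word further upstream. No TATAA word lay in the Hbb-y window. GATA words are recognised by erythroid Gata1, and CACCC-type words by Klf1 and related factors. A match is a description of the letters only. In the RefSeq gene table, Hba-x and Hba-a1 are neighbours on chromosome 11, and Hbb-y and Hbb-bh1 are neighbours on chromosome 7.

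None of the member probe sets differed between TCDD and DMSO past the test. The test was limma on log2(signal + 16), across 5783 probe sets whose signals averaged 50 or more, with Benjamini-Hochberg adjustment and a threshold of 0.05. Of the 8 member probe sets 6 reached this filter. Of these, 0 passed (limma adjusted p 0.997 for each), where 0.0692% of all tested probe sets passed. At an unadjusted p under 0.05 there were also 0 of 6, where 2.59% of all tested probe sets had one. The 4 higher and 2 lower probe sets had a median log2 change of 0.063, and the median of all tested probe sets was 0.0073. Hba-a1 was the sole probe set of the 6 whose TCDD and DMSO arrays did not overlap, and it was lower in TCDD, as 14.6% of all tested probe sets were.

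**Figure D1:**
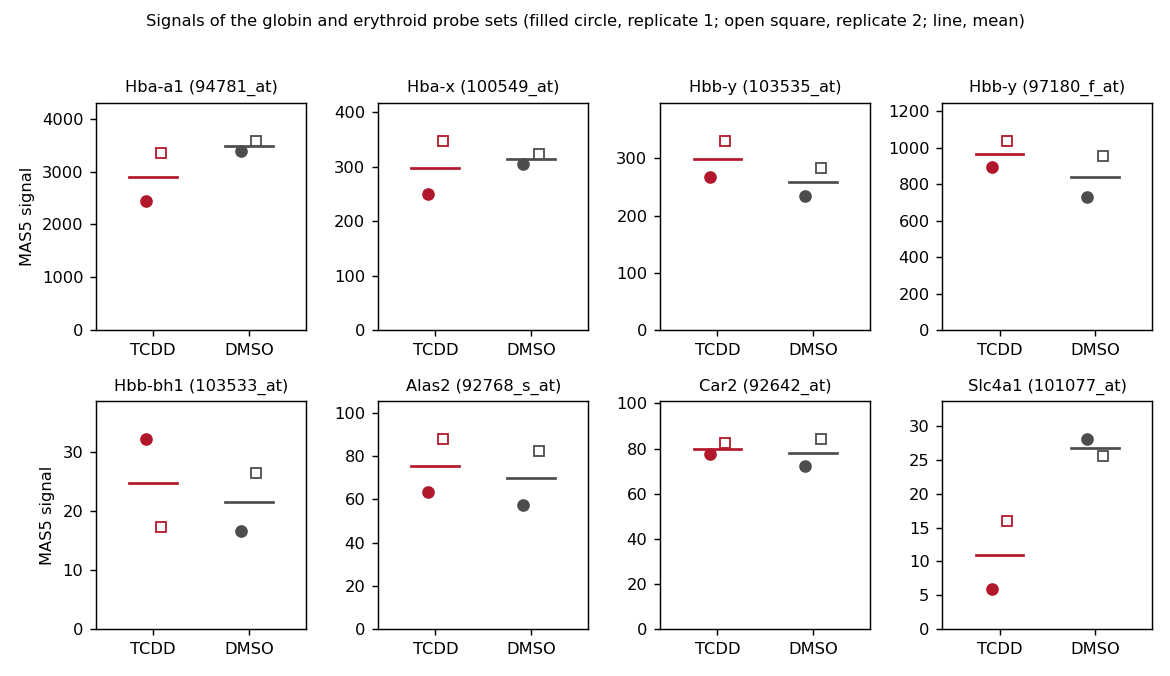
MAS5 signal (linear axes from 0) of the 8 member probe sets on the TCDD and DMSO arrays, with a filled circle for replicate 1, an open square for replicate 2 and a line for the mean of 2. The groups overlap in all but Hba-a1 and Slc4a1, and both of these are lower in TCDD, with Slc4a1 at signals of 28.1 and below.

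Hba-a1 encodes the adult alpha chain. Its probe set 94781_at had signals of 2440.9 and 3349.1 on TCDD replicates 1 and 2, against 3378.4 and 3580.1 on DMSO replicates 1 and 2. TCDD replicate 1 was the low array, and TCDD replicate 2 lay just under DMSO replicate 1. The means were 2895 ± 642 in TCDD and 3479 ± 143 in DMSO (SD, n = 2 each). The log2 change was -0.28 ± 0.17 (SE, limma adjusted p 0.997), a ratio of 0.823, with a 95% confidence interval from -0.66 to 0.097. It was -0.05 without TCDD replicate 1 and -0.51 without TCDD replicate 2. After quantile normalization between arrays it was -0.10 and the groups overlapped. The probe set lies near the top of the signal range, 44th of 12422. Hba-a1 and Hba-a2 are near-identical, so its signal may hold both.

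Hba-x encodes zeta, the embryonic alpha-type chain, and starts upstream of Hba-a1 in the same cluster. Its probe set 100549_at had signals of 249.6 and 348 on TCDD replicates 1 and 2, against 305.7 and 323 on DMSO replicates 1 and 2. Both the lowest and the highest value were from TCDD arrays, so the groups overlapped. The means were 299 ± 69.6 in TCDD and 314 ± 12.2 in DMSO (SD, n = 2 each). The log2 change was -0.087 ± 0.21 (SE), with a 95% confidence interval from -0.55 to 0.38. Without TCDD replicate 1 it was 0.14.

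Hbb-y encodes epsilon-y, the embryonic beta-type chain. Its probe set 103535_at had signals of 267.6 and 330.1 on TCDD replicates 1 and 2, against 233.5 and 282.5 on DMSO replicates 1 and 2. Its other probe set, 97180_f_at, had signals of 892.4 and 1038.6 on the TCDD arrays, against 728.8 and 957.1 on the DMSO arrays. In both probe sets each TCDD array was above the DMSO array of the same number, and TCDD replicate 1 lay under DMSO replicate 2, so the groups overlapped. The log2 changes were 0.20 ± 0.21 for 103535_at and 0.20 ± 0.19 for 97180_f_at (SE), with 95% confidence intervals from -0.26 to 0.65 and from -0.22 to 0.62. Without DMSO replicate 1 they were 0.070 and 0.0084. After quantile normalization they were 0.16 and 0.22, and the groups of 97180_f_at no longer overlapped. The suffix _f_at marks a set whose probes can bind several members of a sequence family.

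Hbb-bh1, the gene of the other embryonic beta-type chain, was dim. Its probe set 103533_at had signals of 32.2 and 17.3 on TCDD replicates 1 and 2, against 16.6 and 26.5 on DMSO replicates 1 and 2. Its order by replicate was opposite in the groups, and its mean was below the filter. The log2 difference was 0.11 ± 0.30 (SE, limma adjusted p 0.988 without the filter). Of its 4 cells 3 were stored in the deposited table as day serials and were turned back into signals.

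Beyond the globins, Alas2 encodes the erythroid form of 5-aminolevulinate synthase, which starts heme synthesis. Its probe set 92768_s_at had signals of 63.2 and 87.8 on TCDD replicates 1 and 2, against 57.2 and 82.3 on DMSO replicates 1 and 2. The replicate 2 arrays were high in both groups. The means were 75.5 ± 17.4 in TCDD and 69.8 ± 17.7 in DMSO (SD, n = 2 each), and the log2 change was 0.096 ± 0.25 (SE), with a 95% confidence interval from -0.45 to 0.65. It was -0.099 without TCDD replicate 2 and -0.12 without DMSO replicate 1.

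Car2 encodes a carbonic anhydrase of red cells that other tissues, osteoclasts among them, also use. Its probe set 92642_at had signals of 77.4 and 82.3 on TCDD replicates 1 and 2, against 72.1 and 84.1 on DMSO replicates 1 and 2. The arrays of both groups lay close together, and the DMSO arrays spanned the TCDD ones. The log2 change was 0.029 ± 0.22 (SE), with a 95% confidence interval from -0.45 to 0.51. Its range over the 4 arrays, 0.18 on the log2 scale, was wider than that of 8.53% of the tested probe sets.

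Slc4a1 encodes band 3, the anion exchanger of the red cell membrane. Its probe set 101077_at had signals of 5.9 and 16 on TCDD replicates 1 and 2, against 28.1 and 25.6 on DMSO replicates 1 and 2. Both TCDD arrays were below both DMSO arrays, as were those of 20.8% of all probe sets without the filter. The log2 difference was -0.69 ± 0.27 (SE), with a limma adjusted p of 0.979 without the filter. All 4 signals were far below the filter, where no detection call says whether they were above background, and 3 of the 4 were stored as day serials.

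**Figure D2:**
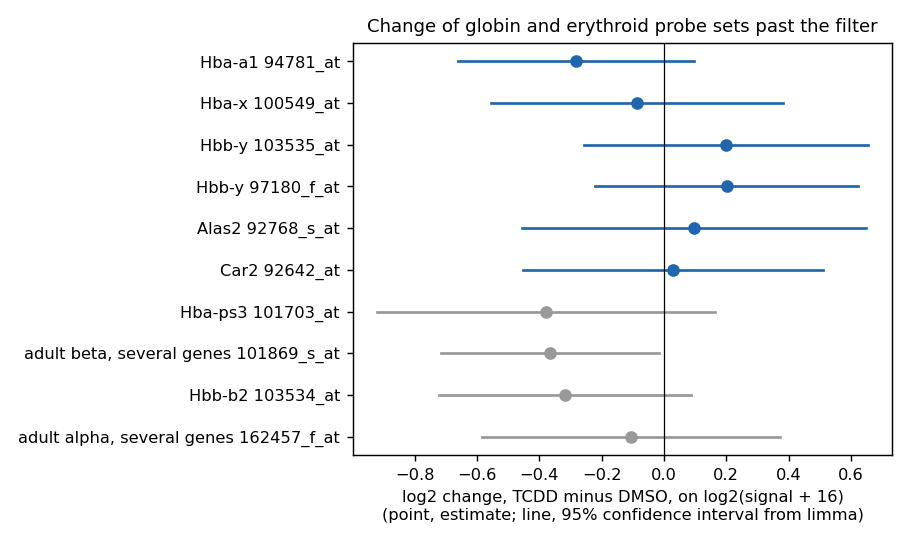
Log2 change, TCDD minus DMSO, on the log2(signal + 16) scale for the 6 member probe sets past the filter (blue) and 4 other globin probe sets past it (grey), with 95% confidence intervals from limma. The 6 member intervals include 0, with estimates from -0.28 for Hba-a1 to 0.20 for both Hbb-y probe sets.

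Other adult globin probe sets, which the choice of members leaves out, are given beside Hba-a1 and were picked after their values were seen. Hbb-b2 (103534_at), an adult beta gene, had signals of 1243 and 1659.4 on TCDD replicates 1 and 2, against 1930.2 and 1664.5 on DMSO replicates 1 and 2. The probe set 101869_s_at, annotated to several adult beta genes and so not assigned to any, had 3261.3 and 4295.1 on the TCDD arrays, against 4767.5 and 4887.3 on the DMSO arrays. In both, the TCDD arrays lay below the DMSO arrays and TCDD replicate 1 was lowest, as for Hba-a1. Their log2 differences were -0.32 ± 0.18 and -0.37 ± 0.16 (SE), with limma adjusted p of 0.997 for each and an unadjusted p of 0.042 for 101869_s_at. After quantile normalization they were -0.25 and -0.15, and the groups of Hbb-b2 overlapped. The probe set 162457_f_at, annotated to both adult alpha genes, had 857.4 and 790 on the TCDD arrays, against 708.8 and 1107.8 on the DMSO arrays, and its groups overlapped. These probe sets can bind shared adult globin sequences, so they are not independent measurements. The pseudogene Hba-ps3 (101703_at) had 119 and 119.6 on the TCDD arrays, against 205.8 and 123.3 on the DMSO arrays. A further probe set of the adult beta genes, 160560_at, had 0.3 and 0.7 on the TCDD arrays, against 9.2 and 0.7 on the DMSO arrays.

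The balance of embryonic to adult globin signal was compared within arrays. For each array, the mean log2 value of the 3 embryonic probe sets (Hba-x and both of Hbb-y) minus that of Hba-a1 was taken, and its mean over the 4 arrays was set to 0. The resulting differences were 0.26 and 0.13 on TCDD replicates 1 and 2, against -0.27 and -0.11 on DMSO replicates 1 and 2. Both TCDD arrays lay above both DMSO arrays. The TCDD mean exceeded the DMSO mean by 0.39 on the log2 scale, with a pooled SD within groups of 0.10. Between arrays of the same number the difference was 0.53 for replicate 1 and 0.24 for replicate 2. The difference is given as a description with no test. The smallest p that an exact two-sided permutation test of 2 arrays against 2 can give is 0.33.

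The size of this difference depended on the probe sets and the scaling. In the alpha family alone (Hba-x minus Hba-a1) it was 0.19, with 0.097 and 0.098 on the TCDD arrays, against -0.093 and -0.10 on the DMSO arrays. In the beta family alone, with Hbb-b2 on the adult side, it was 0.52, with 0.34 and 0.18 on the TCDD arrays, against -0.53 and 0.0087 on the DMSO arrays. After quantile normalization the difference of the members was 0.19, with 0.090 and 0.096 on the TCDD arrays, against -0.21 and 0.024 on the DMSO arrays. The TCDD arrays lay above the DMSO arrays in each of these forms, which share probe sets and are not independent. With 162457_f_at as the adult side of the alpha form, this order would not hold. Centred over the arrays, Hba-x was at -0.27 on TCDD replicate 1 and 162457_f_at at 0.0053. On DMSO replicate 1 they were at 0.0057 and -0.26. With the 3 other adult globin probe sets added to the adult side, the difference was 0.37. The arrays were at 0.17 and 0.20 in TCDD, against -0.24 and -0.13 in DMSO. The embryonic minus adult difference was chosen with earlier results of these data known. It cannot say whether the embryonic signals were high or the adult signals low, since neither passed a test. It also sets embryonic probe sets of signal rank 277, 1200 and 1351 against Hba-a1 at rank 44. The part of signal level in the difference was not tested.

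**Figure D3:**
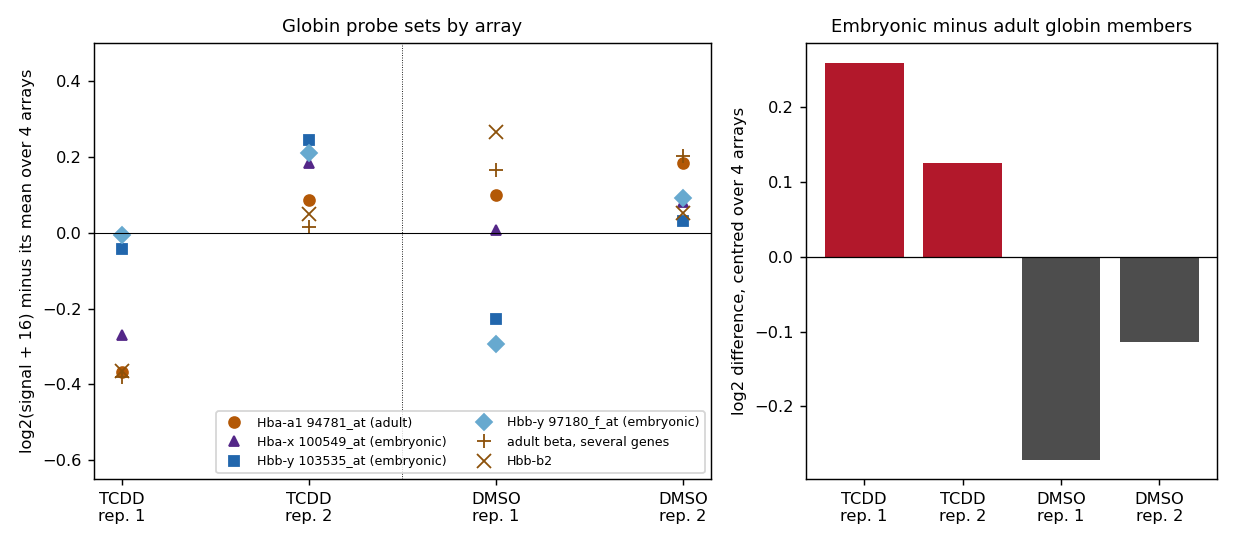
Left, log2(signal + 16) of globin probe sets on each array minus the probe set's mean over the 4 arrays. Right, the mean of the 3 embryonic probe sets minus Hba-a1, centred over the arrays, at 0.26 and 0.13 on the TCDD arrays and at -0.27 and -0.11 on the DMSO arrays.

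The members also differed by replicate number. All 6 probe sets past the filter were lower in replicate 1 than in replicate 2 in both groups, as were 30.8% of the tested probe sets. Other globin and erythroid probe sets did not all share this order. Hbb-b2, Hba-ps3 and the dim Slc4a1 were higher in DMSO replicate 1 than in DMSO replicate 2. The probe set 162457_f_at was higher in TCDD replicate 1 than in TCDD replicate 2, while 101869_s_at had the order of the members. For Alas2 the log2 difference, replicate 1 minus replicate 2, was -0.39 in TCDD and -0.43 in DMSO, and for Hba-a1 it was -0.45 and -0.083. The mean of the 4 globin probe sets, centred over the arrays, was -0.17 and 0.18 on TCDD replicates 1 and 2, against -0.10 and 0.096 on DMSO replicates 1 and 2. Per the labels, the cRNA of TCDD replicates 1 and 2 came from 11 and 8 µg of total RNA, against 11 and 7 µg for the DMSO replicates. The median of the 8 tooth germ marker genes past the filter, centred likewise, was -0.34 and 0.15 on the TCDD arrays, against -0.095 and 0.11 on the DMSO arrays. The part of the RNA input, the tooth markers and the ascorbic acid in these values was not tested.

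The mean globin profile, of 3 embryonic probe sets and Hba-a1, was low in replicate 1 and high in replicate 2 of both groups. Hba-a1 alone was at -0.37 and 0.086 on the TCDD arrays, against 0.099 and 0.18 on the DMSO arrays. Likeness to the mean profile is thus likeness to a replicate order over 4 arrays. The genes whose profile over the 4 arrays was most like the mean globin profile lay outside the gene lists used here. By Pearson r over the 4 arrays, among 4844 probe sets of adequate range, the closest were Ethe1, Unc45a, Supt5, Atp6v0b, Pde6d and the Actb probe set 101578_f_at, with r from 0.998 to 0.999. Ethe1 is a mitochondrial sulfur dioxygenase gene and Actb the beta-actin gene. Of the candidates 0.95% had an r over 0.99, which came to 46 probe sets.

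Genes of the erythroid programme outside the members were taken from 5 lists, with 53 of 73 listed genes on the array under a single symbol and 30 past the filter. Of these 30, 0 passed the test in either direction (limma) and 1 had an unadjusted p under 0.05. There were 12 higher and 18 lower, with a median log2 change of -0.035. The groups did not overlap in 2 higher and 4 lower genes, where 15.3% and 14.6% of all tested probe sets did so.

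Among transcription factors the defining genes of red cells were dim. Gata1, the master factor of the lineage, had signals of 24 and 25.7 on the TCDD arrays, against 45.3 and 16.6 on the DMSO arrays. Klf1, which activates the adult beta-globin gene, had 24.7 and 34.1 on the TCDD arrays, against 8.2 and 13.4 on the DMSO arrays. Both lay below the filter, with a limma adjusted p of 0.986 and 0.979 without it. The 6 factors past the filter, which other tissues also express, had log2 changes from -0.17 to 0.30. Bach1, a heme-sensing repressor, was at 0.30 ± 0.21, Foxo3 at 0.016 ± 0.21, Ldb1, a partner of Gata1 complexes, at -0.024 ± 0.26 and Klf3 at 0.042 ± 0.21 (SE).

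In heme synthesis, all 5 genes past the filter had lower values in TCDD (4 of 5 after quantile normalization), with a median log2 change of -0.12 and 0 past the test. Without TCDD replicate 1 the median was -0.054. Alad, which makes porphobilinogen, had signals of 230.8 and 279.5 on the TCDD arrays, against 269.9 and 313.2 on the DMSO arrays, a log2 difference of -0.18 ± 0.20 (SE). Uros differed by -0.23 ± 0.22, Urod by -0.12 ± 0.21 and Alas1, the form of the first enzyme that most tissues use, by -0.0082 ± 0.20 (SE). Alas2, of the same pathway, differed by 0.096.

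Red cell membrane genes had 4 of 9 measured genes past the filter, 2 higher and 2 lower, with a median of 0.11, or of -0.072 over all 9 without the filter. With 1 array left out it was 0.0015 without TCDD replicate 2, -0.028 without DMSO replicate 1 and 0.24 without DMSO replicate 2. Add1 (adducin) differed by -0.062 ± 0.20, the glucose transporter Slc2a1 by 0.41 ± 0.35, Cd47 by 0.27 ± 0.22 and Ank1 (ankyrin) by -0.32 ± 0.32 (SE). The lineage-restricted Rhag, Rhd and Epb42 were at 37.4 or below on every array. In iron handling and erythropoietin signalling 3 of 8 were higher and 5 lower (4 and 4 after quantile normalization), with a median of -0.088. This median was 0.013 without TCDD replicate 2, -0.055 without DMSO replicate 1, -0.18 at a mean signal of 100 or more and -0.028 after quantile normalization.

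Tfrc, the transferrin receptor that brings iron into red cell precursors and other dividing cells, had signals of 286.7 and 283.5 on the TCDD arrays, against 585.2 and 327.8 on the DMSO arrays. Its groups did not overlap, with DMSO replicate 1 standing high, and its log2 difference was -0.59 ± 0.25 (SE, limma adjusted p 0.997). Fth1, the ferritin heavy chain gene, differed by -0.076 ± 0.18, Hmox1, which degrades heme, by 0.25 ± 0.22 and Ireb2 by 0.077 ± 0.23 (SE). Of late erythroid enzymes and proteins 3 of 7 were higher, with a median of -0.046 that turned to 0.17 without TCDD replicate 2 and 0.057 without DMSO replicate 1, and that was -0.094 at a mean signal of 100 or more, -0.10 without the filter and -0.073 after quantile normalization. The peroxiredoxin gene Prdx2 differed by -0.14 ± 0.16, Xpo7 by 0.29 ± 0.22, Mgst3 by -0.046 ± 0.21 and Cat (catalase) by -0.29 ± 0.25 (SE). Tspo2, an erythroid gene of the translocator protein family in the mouse, was on none of the lists and is named after its values were seen. It had 54.6 and 59.4 on the TCDD arrays, against 123.5 and 91.4 on the DMSO arrays (limma adjusted p 0.997).

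**Figure D4:**
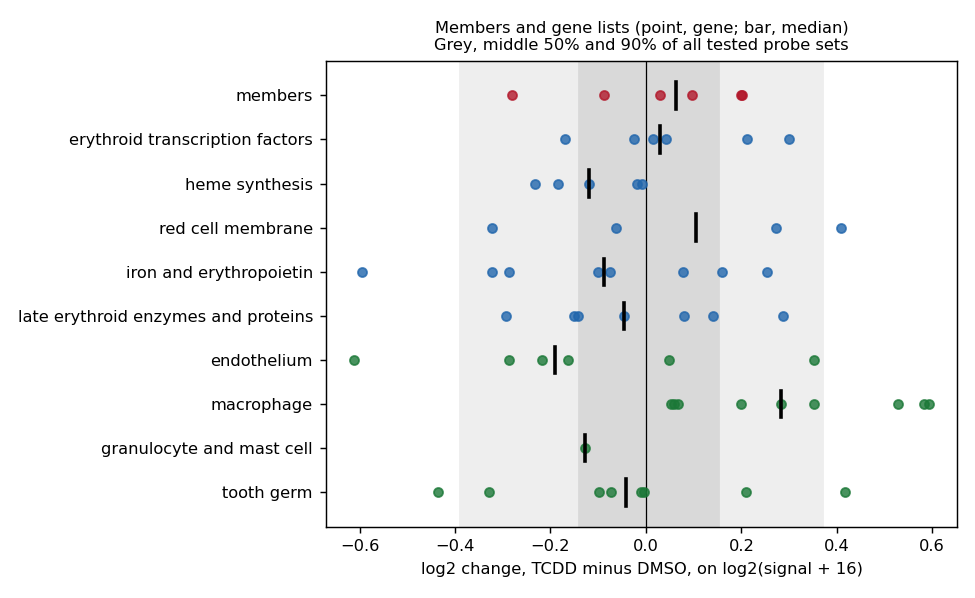
Log2 change, TCDD minus DMSO, on the log2(signal + 16) scale, of the members (red), of genes of the erythroid lists (blue) and of other cell types and the tooth germ (green), each a point, with the median as a bar. The grey bands hold the middle 50% and 90% of all tested probe sets, and the 6 member probe sets past the filter lie within the wider band.

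Markers of the vessels and of other blood cells were read beside the red cell genes. In the endothelium list 2 of 6 genes past the filter were higher and 4 lower, with a median log2 change of -0.19. The median was -0.051 without DMSO replicate 1, -0.060 without TCDD replicate 1, -0.057 at a mean signal of 100 or more and -0.071 without the filter. Its brightest genes were Eng at -0.16 ± 0.20, Cdh5 at 0.049 ± 0.21, Emcn at 0.35 ± 0.20 and Sox18 at -0.22 ± 0.26 (SE). The other genes past the filter were Pecam1 at -0.61 ± 0.30 and Tie1 at -0.29 ± 0.25 (SE). Pecam1 had 42.5 and 43.3 on the TCDD arrays, against 107 and 49.8 on the DMSO arrays. The groups did not overlap in 1 higher gene, Emcn, and 1 lower gene, Pecam1, where 15.3% and 14.6% of all tested probe sets did so. The summed signal of the 11 measured endothelium genes was 798 and 851 on the TCDD arrays, against 855 and 868 on the DMSO arrays. Macrophage genes had 9 of 9 past the filter higher, also after quantile normalization, with a median of 0.28, and 0 passed the test (limma). The groups did not overlap in 4 of the 9, where 15.3% of all tested probe sets were higher without overlap. An unadjusted p under 0.05, held by 2.59% of all tested probe sets, was found for 3 of the 9, namely Lyz2 at 0.59 ± 0.24, Ctss at 0.58 ± 0.23 and C1qb at 0.53 ± 0.23 (SE), genes chosen for their values. The median was 0.13 over all 14 genes without the filter, 0.17 at a mean signal of 100 or more and 0.18 without DMSO replicate 2. Of the genes below the filter, Adgre1 (-0.28), Fcgr3 (-0.33), Itgam (-0.25) and Fcer1g (-0.037) were lower in TCDD and Mrc1 (0.32) was higher. Cd14 was at 0.052 ± 0.24, C1qc at 0.35 ± 0.20, C1qa at 0.28 ± 0.23 and Cd68 at 0.059 ± 0.21 (SE). The summed signal of the 14 macrophage genes was 1108 and 1097 on the TCDD arrays, against 955 and 834 on the DMSO arrays. Of the 6 measured megakaryocyte and platelet genes none reached the filter, and of 15 granulocyte and mast cell genes Tpsb2 alone did, at -0.13 ± 0.24 (SE). The summed signal of the 8 member probe sets was 4029 and 5269 on the TCDD arrays, against 4820 and 5361 on the DMSO arrays. Most of this sum was Hba-a1, at 2440.9 and 3349.1 on the TCDD arrays, against 3378.4 and 3580.1 on the DMSO arrays. Among tooth markers Msx1 was the brightest, at 540.6 and 687.1 on the TCDD arrays, against 605.2 and 705 on the DMSO arrays. Others were dimmer, with mean signals of 121.65 for Shh, 85.1 for Msx2 and 48.4, below the filter, for Pax9. The epithelial keratin genes Krt14 and Krt15 were at 10.8 or below on every array. The brightest tooth markers differed by -0.097 ± 0.19 (Msx1), 0.21 ± 0.19 (Dlx2), -0.011 ± 0.27 (Lef1) and -0.33 ± 0.22 (Barx1, SE). The part of vessel and macrophage content in the globin values was not tested.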

How the data were processed

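Expression was measured on 4 murine U74v2A arrays, 2 of TCDD-treated and 2 of DMSO-treated tooth germ pools. Per the labels, the authors made the deposited intensity signals with Affymetrix Microarray Suite 5.0 (MAS5), scaled to a target of 100. In the deposited table, 37.1% of cells (18515 of 49952) hold a day serial in place of a signal. Each was read as day.month, which gave trimmed mean signals (2% off each tail) of 100.05 on every array. The fault touched 6 cells of the members, all in Hbb-bh1 and Slc4a1. Control probe sets (66) were left out. Names came from the platform annotation, updated through gene IDs to GRCm38.p6 with 0 changes, and 10833 probe sets had 1 symbol, 396 several and 1193 none. No genome build of the files is given in the sources used here. The contrast, TCDD minus DMSO, used limma 3.58.1 under R 4.3.3 (functions lmFit and eBayes with trend, 10.8 degrees of freedom in total), and the procedure was tested on simulated data. The arrays, not the explants in a pool, are the replicates. Of the degrees of freedom, 8.85 came from the spread of the other probe sets. Members and lists were chosen with earlier results of these data known. Named genes are all members, the up to 4 brightest past the filter in each list, and the 6 closest profiles; others named were chosen after their values were seen. A listed gene is its brightest probe set. The alternatives were offsets of 1 and 64, no filter or a mean of 100, quantile normalization, day serials set to 16, a replicate block, averaged probe sets, each array left out, and, added after seeing the data, other probe sets for the embryonic minus adult difference.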

Additional observations from a re-analysis of the deposited data

How the results depend on the processing

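Member probe sets gave 0 calls under each alternative in which they were tested, the replicate block included. Alas2 and Car2 were not tested at a mean of 100, and the averaged probe sets were used for the other gene lists only. The other erythroid genes and the blood and vessel markers also gave 0 calls. The number called over all probe sets was 2 without the filter and 32 with the replicate block, against 4 in the fit as reported, and lay between 2 and 5 with 1 array left out, at 2 without TCDD replicate 2 or DMSO replicate 1. Replicate 1 minus replicate 2 in TCDD correlated with that in DMSO at r = 0.381 over the 5783 probe sets, but the labels do not pair the pools by number. With the block, the lowest limma adjusted p of a member was 0.262, for Hba-a1. The embryonic minus adult globin difference, 0.39, was 0.19 with quantile normalization, 0.19 in the alpha family alone and 0.52 in the beta family alone, and 0.31 to 0.46 with 1 array left out. Both the alpha and the beta form rest on fewer probe sets. With 162457_f_at as its adult side, the alpha form would not keep the TCDD arrays above the DMSO arrays. Directions turned with 1 array left out for Hba-x (-0.31 to 0.14), Alas2 (-0.12 to 0.31) and Car2 (-0.063 to 0.12), all short of the test, and the cause was not tested. Hba-a1 kept its sign, from -0.51 to -0.05. The median of the other erythroid genes lay between -0.071 and -0.022 over all alternatives. With 1 array left out, the lone array of its group is assumed to vary like the others. The signals of Hbb-bh1 and Slc4a1 were too low to rank their changes.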
